A study of Mus musculus with 18 samples.

Results

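The mitochondrial stress response and proteostasis set held 10 genes: the mitokines *Gdf15* and *Fgf21*, the transcription factor *Atf5*, the mitochondrial chaperones *Hspa9*, *Hspd1* and *Hspe1*, and the mitochondrial proteases *Lonp1*, *Clpp*, *Yme1l1* and *Oma1*. They were chosen by name, with no measured value in the rule, but with earlier results of these data known. Each symbol matched 1 row among the 55385 genes of the count table. Of these 10 genes, 9 passed the filter on low counts that left 14979 genes for testing, and *Fgf21* did not. All cells were bone marrow-derived macrophages (BMDM) from female C57BL/6J mice aged 12 weeks, differentiated with L929 supernatant in DMEM and used at day 7, with 3 mice as the source. Cells received vehicle (Veh, 0.1% DMSO), 250 µM hemicholinium-3 (HC3, an inhibitor of choline uptake) or 5 µM RSM-932a (RSM, a choline kinase inhibitor) for 24 h. After that, IL-4 at 20 ng/mL was added for 24 h to give polarized cells (M[IL-4]), or left out to give naïve cells (M[0]), which gave 6 groups of 3 libraries and 18 libraries in all. The sources used here do not tie a library to a mouse, so the p-values measure the spread between these libraries.

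Mitochondria import nearly all of their proteins, and fold them in the matrix with the Hsp70 protein mortalin (*Hspa9*) and the chaperonin built from Hsp60 (*Hspd1*) and Hsp10 (*Hspe1*). Damaged or unassembled proteins are cut by ATP-dependent proteases, LONP1 and CLPP in the matrix and YME1L1 at the inner membrane, while OMA1 is a stress-activated protease of the inner membrane that also relays mitochondrial damage to the integrated stress response. ATF5 is a transcription factor that responds to mitochondrial stress, and GDF15 and FGF21 are secreted proteins that are widely used as readouts of it. The integrated stress response acts through ATF4 on C/EBP-ATF response elements (CARE), and the heat shock response through HSF1 on heat shock elements.

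Depth was between 17457796 and 19522255 counts per library. The 8 macrophage markers all passed the filter, and their summed level (in CPM, counts scaled to 1000000 per library) was lowest in the HC3 groups. It was 20277 to 21364 CPM in Veh M[0], 8707 to 9799 in HC3 M[0] and 15749 to 17196 in RSM M[0]. In M[IL-4] it was 11801 to 12146 CPM with vehicle, 7469 to 8657 with HC3 and 10601 to 12982 with RSM. Of 7 stromal markers, 6 passed. Their summed level was 514 to 868 CPM in Veh M[0], 1226 to 1686 in HC3 M[0] and 1025 to 1471 in RSM M[0], and 275 to 651, 551 to 1042 and 533 to 1061 CPM in the corresponding M[IL-4] groups, with *Lum* at 0 in 5 of the 6 groups. Transcripts encoded by mitochondrial DNA took 1.68 to 2.2% of counts with vehicle, 2.5 to 3.45% with HC3 and 0.665 to 0.829% with RSM. The part of these differences in the results on the 10 genes was not tested, except that the counts of members given for the 4 inhibitor comparisons were the same with the mitochondrial genes left out. In bulk RNA, fewer cells of a type and less RNA per cell cannot be told apart.

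Promoter sequences are shown for *Hspd1* and *Hspe1*, which share a run of heat shock elements, for *Fgf21* and *Atf5*, which hold 1 element each, and for *Gdf15*, whose level rose most with HC3. RefSeq windows of GRCm38.p6 were matched for 9 of the 10 members (12 windows, since *Gdf15*, *Atf5* and *Hspd1* have 2 starts each), and each window ran from 250 bases before to 50 after the start. Both strands were searched for the CARE core TGATGNAA, the cAMP response element TGACGTCA and a heat shock element pair, GAANNTTC or TTCNNGAA. The CARE core was present in 3.97% of the 32851 windows of all genes, the cAMP response element in 1.79% and the heat shock pair in 15.06%, or in at least 1 window of 4.51%, 2.03% and 16.97% of the 27025 genes. Among members the CARE core was found in *Fgf21* only, the heat shock pair in 5 members (*Atf5*, *Clpp*, *Gdf15*, *Hspd1* and *Hspe1*), and the cAMP response element in none of the windows searched. *Hspd1* and *Hspe1* lie head to head on chromosome 1. A run of 18 bases with 3 overlapping heat shock pairs lies before a start of each gene. All 250 bases upstream of each of these starts lie in annotated exons of *Hspd1* or *Hspe1*. Relative to the other start of *Hspd1*, the run lies downstream. The run is printed below in capitals, on the strand of each gene (chr1:55088053-55088082).
Hspd1, minus strand, run 144 to 127 bases before the start: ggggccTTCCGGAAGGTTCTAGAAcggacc
Hspe1, plus strand, run 89 to 72 bases before the start: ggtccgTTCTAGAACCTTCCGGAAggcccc

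The 250 bases upstream of *Fgf21* (chr7:45615491-45615740, minus strand) hold the CARE core on the opposite strand, in capitals, from 139 bases before the start. Those upstream of the distal start of *Atf5* (chr7:44816659-44816908, minus strand) hold 1 heat shock pair, in capitals, from 191 bases before the start. Upstream of the distal start of *Gdf15* (chr8:70632457-70632706, minus strand) none of the letters searched for were found, and its heat shock pair lies 44 bases before its other start. None of these 3 stretches overlaps an annotated exon. A match describes the letters only, and was not tested as a site of binding.
Fgf21: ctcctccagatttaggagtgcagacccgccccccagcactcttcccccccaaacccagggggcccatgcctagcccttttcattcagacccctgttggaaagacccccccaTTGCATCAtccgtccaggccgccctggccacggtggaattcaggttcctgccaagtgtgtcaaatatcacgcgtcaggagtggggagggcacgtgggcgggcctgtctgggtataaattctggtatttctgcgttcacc
Atf5: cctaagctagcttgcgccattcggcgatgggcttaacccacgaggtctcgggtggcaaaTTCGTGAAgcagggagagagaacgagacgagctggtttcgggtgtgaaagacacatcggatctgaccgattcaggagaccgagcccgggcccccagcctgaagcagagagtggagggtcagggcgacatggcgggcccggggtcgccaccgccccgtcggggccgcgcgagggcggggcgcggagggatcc
Gdf15: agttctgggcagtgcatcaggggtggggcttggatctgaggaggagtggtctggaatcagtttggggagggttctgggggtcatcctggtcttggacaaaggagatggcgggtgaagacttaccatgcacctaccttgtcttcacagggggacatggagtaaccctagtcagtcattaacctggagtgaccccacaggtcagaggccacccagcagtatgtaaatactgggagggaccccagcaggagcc

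With either inhibitor, *Gdf15*, *Atf5*, *Hspa9* and *Lonp1* rose at least 2-fold in either polarization state, the chaperonin genes *Hspd1* and *Hspe1* rose by smaller amounts, *Clpp* rose in 3 of the 4 comparisons, and *Yme1l1* and *Oma1* did not pass the test in any of them. Calls required a false discovery rate (FDR, Benjamini-Hochberg) under 0.05 in the quasi-likelihood test of edgeR together with a log2 fold change of 1 or more in size, and the looser count uses the FDR alone. In M[0], 4 of the 9 members tested were called higher with HC3 (background 5.93% of all genes called higher) and 4 with RSM (5.05%). After IL-4 the same 4 genes were called higher, against a background of 4.72% for HC3 and 5.05% for RSM, and no member was called lower in any of the 4 comparisons by edgeR, by DESeq2 or at an unadjusted p under 0.05. By the FDR alone, 7 members rose with HC3 in M[0] (22.6% of all genes), 7 with RSM in M[0] (20.5%), 7 with HC3 in M[IL-4] (18.9%) and 6 with RSM in M[IL-4] (20.1%). The median log2 fold change of the 9 members was 0.997, 0.899, 0.612 and 0.398 in the same order, where the median of all genes was 0.023, 0.005, 0.006 and 0.019. The 4 genes called in all 4 comparisons were among 285 of 14979 genes (1.9%) with that pattern, and 6 members were among the 1436 genes (9.59%) that passed the FDR as higher in all 4. Both inhibitors were compared with the same vehicle libraries, so these counts are not independent of each other.

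**Figure D1:**
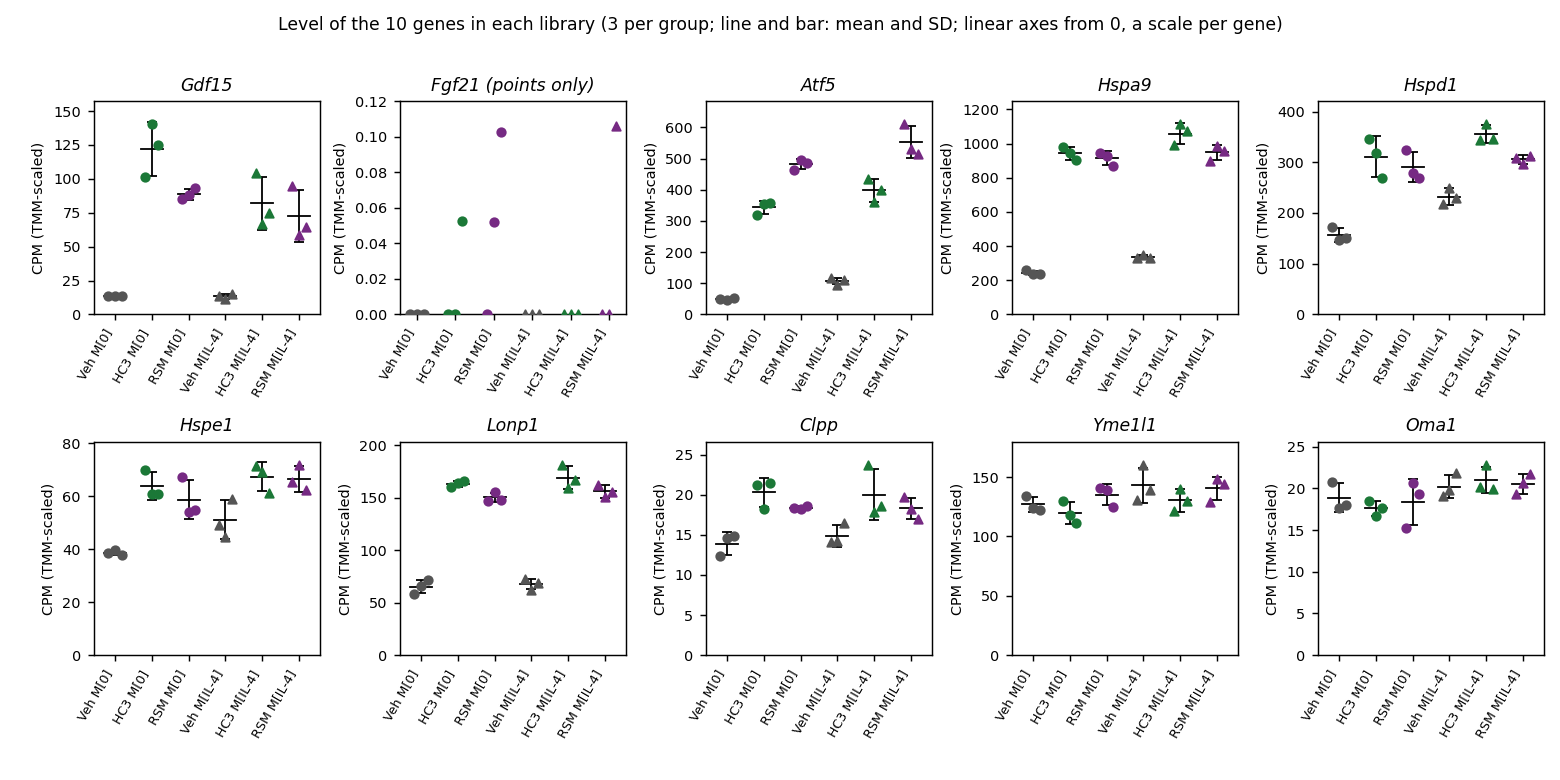
Level of each of the 10 genes in CPM (linear axes from 0, with a scale per gene) in the 3 libraries of each group, circles for M[0] and triangles for M[IL-4], grey for vehicle, green for HC3 and purple for RSM, with the mean and SD as black lines except for *Fgf21*. All 12 inhibitor libraries lie above all 6 vehicle libraries for *Gdf15*, *Atf5*, *Hspa9*, *Hspd1*, *Lonp1* and *Clpp*, 10 of 12 for *Hspe1*, 1 of 12 for *Oma1* and 0 of 12 for *Yme1l1*.

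*Gdf15* (ENSMUSG00000038508, chr8:70629393-70632456, minus strand), which encodes a secreted member of the TGF-β family that acts on appetite, was low and even in vehicle-treated cells. Its level was 13.9, 13.6 and 13.9 CPM in the libraries of Veh M[0] and 13.9, 11.5 and 15.0 CPM in those of Veh M[IL-4]. With HC3 it was 101, 140.3 and 125 CPM in M[0] and 104, 66.8 and 75.1 CPM in M[IL-4]. RSM gave 85.0, 87.9 and 93.0 CPM in M[0] and 94.6, 58.6 and 64.5 CPM in M[IL-4]. The lowest inhibitor library was therefore at 58.6 CPM and the highest vehicle library at 15.0, so the groups did not overlap. In M[IL-4], replicate 1 was the highest library of *Gdf15* under each inhibitor. The log2 fold change over vehicle was 3.14 with HC3 (SE 0.185, FDR 1.18e-10) and 2.68 with RSM (SE 0.184, FDR 1.05e-09) in M[0], which is 8.84-fold and 6.41-fold. In M[IL-4] it was 2.60 with HC3 (FDR 2.22e-09) and 2.43 with RSM (FDR 4.81e-09). Ranked by log2 fold change among all genes tested, *Gdf15* came 70 with HC3 and 114 with RSM in M[0].

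*Fgf21* (ENSMUSG00000030827, chr7:45613886-45615490, minus strand), a secreted hormone of the fibroblast growth factor family best known from liver, was at or near 0. Over all 18 libraries 6 counts were found, and 14 libraries had none. Of the 6 counts, 1 was in HC3 M[0], 3 in 2 libraries of RSM M[0] and 2 in 1 library of RSM M[IL-4]. Both vehicle groups and HC3 M[IL-4] had 0 counts, which allows a level of up to 0.0555 to 0.0559 CPM in each (3 counts over the group). No group exceeded 3 counts, so no fold change was formed and a difference was not detectable at this depth. Per kilobase of exon, the mean level in the 4 inhibitor groups was 39.2 to 66.0 CPM for *Gdf15* and 0 to 0.0543 CPM for *Fgf21*.

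*Atf5* (ENSMUSG00000038539, chr7:44812256-44816658, minus strand) rose with both inhibitors and was the only member to pass the test between HC3 and RSM in both polarization states. Veh M[0] libraries had 49.4, 46.1 and 54.2 CPM and Veh M[IL-4] libraries 117, 95.7 and 109 CPM. HC3 libraries had 319, 355 and 357 CPM in M[0] and 435, 360.4 and 398 CPM in M[IL-4]. RSM libraries had 465, 496 and 487 CPM in M[0] and 610.4, 532 and 514 CPM in M[IL-4]. Ordered by mean, the 6 groups ran Veh M[0], Veh M[IL-4], HC3 M[0], HC3 M[IL-4], RSM M[0] and RSM M[IL-4], and no neighbouring groups overlapped. Log2 fold changes over vehicle were 2.78 (SE 0.0944, FDR 7.32e-14) with HC3 and 3.27 (SE 0.096, FDR 3.09e-14) with RSM in M[0], or 6.89-fold and 9.67-fold. They were 1.89 (FDR 9.91e-12) and 2.36 (FDR 1e-12) in M[IL-4]. On the opposite strand, *Nup62* overlaps 4.11% of the exon length of *Atf5*, and the setting of strand in the counting is not given in the sources used here, so reads there cannot be assigned.

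*Hspa9* (ENSMUSG00000024359) encodes mortalin, the Hsp70 chaperone that draws imported proteins into the matrix and folds them. Vehicle libraries had 257, 238 and 236 CPM in M[0] and 328, 349 and 332 CPM in M[IL-4]. With HC3 the levels were 980.2, 944 and 902 CPM in M[0] and 989, 1113 and 1072 CPM in M[IL-4]. RSM gave 947, 927 and 868 CPM in M[0] and 899, 986 and 959 CPM in M[IL-4]. Inhibitor and vehicle libraries were far apart, while HC3 and RSM libraries overlapped in M[0]. The log2 fold change was 1.95 with HC3 (SE 0.0636, FDR 4.88e-14) and 1.91 with RSM (SE 0.0635, FDR 7.27e-14) in M[0]. After IL-4 the values of *Hspa9* were 1.65 and 1.49, with a larger FDR of 2.27e-12.

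The chaperonin genes *Hspd1* (ENSMUSG00000025980, chr1:55077835-55088243, minus strand) and *Hspe1* (ENSMUSG00000073676, chr1:55088132-55091307, plus strand) encode the barrel and the lid of the Hsp60-Hsp10 folding chamber and share the head-to-head region with the 3 heat shock pairs shown above. *Hspd1* had 172, 146 and 149.7 CPM in Veh M[0], 346, 319 and 268 CPM in HC3 M[0], and 325, 278 and 269 CPM in RSM M[0]. In M[IL-4] it had 217, 250.0 and 229 CPM with vehicle, 343, 375 and 346 CPM with HC3, and 308, 296 and 313 CPM with RSM. Every inhibitor library of *Hspd1* was above every vehicle library. *Hspe1* had 38.4, 39.8 and 38.0 CPM in Veh M[0], 70.0, 60.7 and 60.8 CPM in HC3 M[0], and 67.1, 54.0 and 54.9 CPM in RSM M[0]. In M[IL-4] it had 49.3, 44.8 and 59.1 CPM with vehicle, 71.6, 69.1 and 61.1 CPM with HC3, and 65.5, 71.8 and 62.2 CPM with RSM. The vehicle library of *Hspe1* at 59.1 CPM was above 2 of the RSM M[0] libraries, but within each polarization state vehicle and inhibitor libraries did not overlap.

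*Hspd1* rose by 0.997 log2 units with HC3 in M[0], just under the size needed for a call (SE 0.0926, 95% interval 0.80 to 1.19, FDR 5.97e-08). The log2 fold change of *Hspd1* was 0.90 with RSM in M[0], 0.61 with HC3 in M[IL-4] and 0.40 with RSM in M[IL-4], all past the FDR. With HC3 in M[0], *Hspd1* was also called when scaled by library size only (1.04) or without replicate 3 (1.06). For *Hspe1* the values in the same order of comparisons were 0.72, 0.60, 0.40 and 0.38, with the largest FDR at 0.00604. Without replicate 2, *Hspe1* no longer passed the FDR in M[IL-4] with HC3 (0.29, FDR 0.0606) or RSM (0.22, FDR 0.15), and without replicate 1 it did not with HC3 (0.33, FDR 0.056). Per kilobase of exon, the ratio of the *Hspd1* to the *Hspe1* level was 2.04 to 2.49 in Veh M[0], 2.46 to 2.93 in HC3 M[0] and 2.7 to 2.87 in RSM M[0], so that Veh M[0] and RSM M[0] did not overlap. After IL-4 the ratio was 2.16 to 3.12 with vehicle, 2.67 to 3.16 with HC3 and 2.3 to 2.81 with RSM, and all 3 groups overlapped. Near-identical transcripts exist for both genes, but the 2 genes that match *Hspd1* (*Gm47750* and *Hspd1-ps3*) had 841 counts in all, against 91823 for *Hspd1*, and the gene that matches *Hspe1* (*AC117239.2*) had 201 against 19249. *Hspd1* and *Hspe1* also overlap each other on opposite strands over 4.24% and 7.6% of their exon length.

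*Lonp1* (ENSMUSG00000041168, chr17:56614297-56626887, minus strand), the ATP-dependent protease that removes oxidized and misfolded matrix proteins, rose by nearly the same amount in all 4 comparisons. Its level was 58.6, 66.0 and 71.5 CPM in Veh M[0] and 72.2, 62.4 and 69.1 CPM in Veh M[IL-4]. HC3 gave 160.1, 164 and 166 CPM in M[0] and 181, 159 and 167 CPM in M[IL-4]. RSM gave 147, 155 and 148 CPM in M[0] and 162, 150.2 and 155 CPM in M[IL-4]. The inhibitor libraries formed 1 band from 147 to 181 CPM, above a vehicle band from 58.6 to 72.2. The log2 fold change was 1.32 with HC3 (SE 0.0732, FDR 4.77e-11) and 1.20 with RSM (SE 0.0731, FDR 2.03e-10) in M[0]. In M[IL-4] it was 1.32 and 1.20 as well.

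*Clpp* (ENSMUSG00000002660, chr17:56990305-56996188, plus strand), the peptidase core of the other ATP-dependent matrix protease, changed much less. It had 12.3, 14.6 and 14.9 CPM in Veh M[0], 21.2, 18.2 and 21.5 CPM in HC3 M[0], and 18.3, 18.2 and 18.6 CPM in RSM M[0]. In M[IL-4] it had 14.1, 14.2 and 16.5 CPM with vehicle, 23.7, 17.8 and 18.6 CPM with HC3, and 19.7, 18.2 and 17.0 CPM with RSM. Inhibitor libraries were all above vehicle libraries, by a narrow margin in M[IL-4]. *Clpp* rose by 0.54 (FDR 0.000902) with HC3 and 0.40 (FDR 0.0106) with RSM in M[0], and by 0.42 (FDR 0.00703) with HC3 in M[IL-4]. After RSM and IL-4 the log2 fold change of *Clpp* was 0.29 (95% interval 0.05 to 0.54, FDR 0.0533), and with a replicate block within each polarization state it passed (0.29, FDR 0.0235). Leaving out replicate 1 ended the calls of *Clpp* by the FDR with RSM in M[0] (FDR 0.0583) and with HC3 in M[IL-4] (0.25, FDR 0.14), and leaving out replicate 3 that with RSM in M[0] (FDR 0.0608). *Clpx*, the unfoldase that partners CLPP, did not pass the FDR in any of the 4 comparisons.

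*Yme1l1* (ENSMUSG00000026775, chr2:23156369-23199260, plus strand) and *Oma1* (ENSMUSG00000035069, chr4:103313812-103371868, plus strand), the proteases that process OPA1 at the inner membrane, overlapped between inhibitor and vehicle groups in every comparison. *Yme1l1* had 122 to 134 CPM in Veh M[0], 111 to 129.9 in HC3 M[0] and 125 to 141 in RSM M[0], and 131 to 160.1, 121 to 139.8 and 129 to 148 CPM in the M[IL-4] groups. For HC3 and RSM in turn, the log2 fold change of *Yme1l1* was -0.08 and 0.09 in naïve cells, against -0.14 and -0.03 after IL-4. The 95% intervals of *Yme1l1* ran from -0.31 to 0.27 at their widest, so changes up to that size were within them. With the replicate block within each polarization state, *Yme1l1* passed the FDR as lower with HC3 in M[IL-4] (-0.14, FDR 0.0161). *Oma1* had 17.7 to 20.8 CPM in Veh M[0], 16.7 to 18.5 in HC3 M[0] and 15.3 to 20.6 in RSM M[0], and 19.1 to 21.8, 19.9 to 22.8 and 19.3 to 21.7 CPM in the M[IL-4] groups. Its log2 fold changes lay between -0.10 and 0.05, with 95% intervals within -0.32 to 0.28 and no FDR under 0.501.

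**Figure D2:**
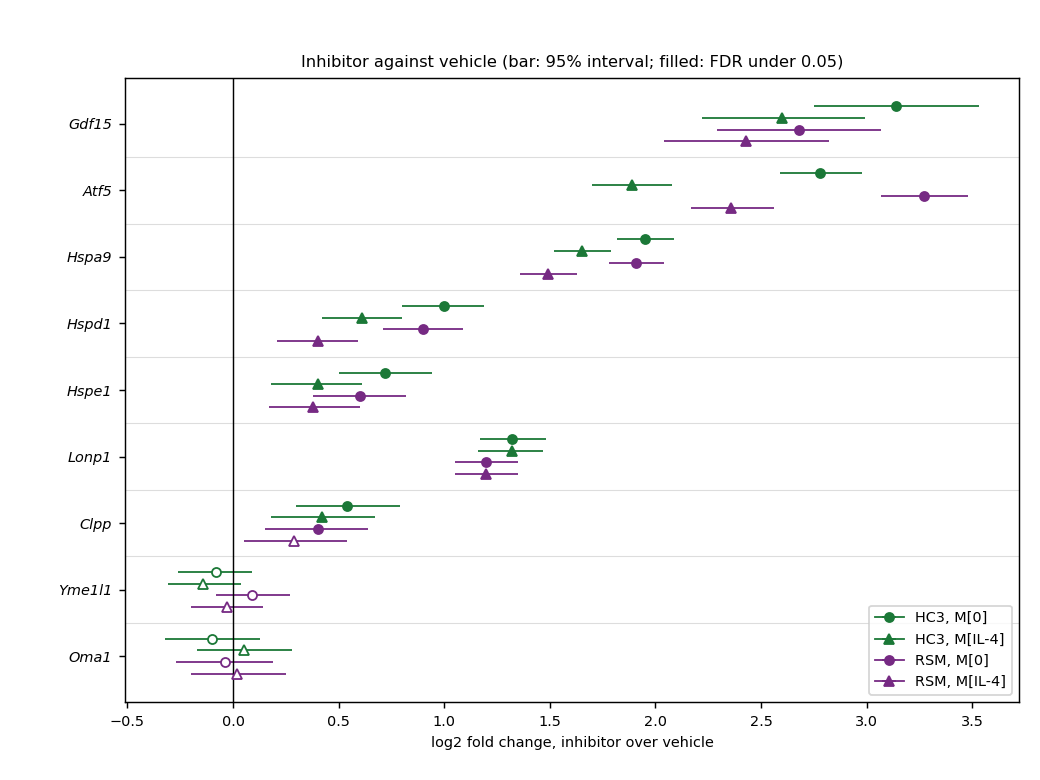
Log2 fold change of each inhibitor over vehicle (x axis, log2 units) for the 9 members tested (y axis), with 95% intervals as bars, circles for M[0] and triangles for M[IL-4], and filled markers for an FDR under 0.05. Values fall from 3.14 for *Gdf15* and 3.27 for *Atf5* to intervals that cover 0 for *Yme1l1* and *Oma1*.

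Per kilobase of exon, with all annotated exons of a gene merged, the order of the members differed between vehicle and inhibitor. In Veh M[0] the mean level was highest for *Hspd1* (59.0 ± 5.28 CPM per kb, SD, n = 3) and *Hspa9* (56.5 ± 2.72), whose values overlap within their SD. *Hspe1* (26.3 ± 0.657) and *Atf5* (25.0 ± 2.06) came next, and *Gdf15* was the lowest of the 9 at 7.46 ± 0.0878, below *Oma1* at 8.8 ± 0.802. In HC3 M[0], *Hspa9* was at 219 ± 9.12 CPM per kb, *Atf5* at 173 ± 10.7, *Hspd1* at 118 ± 15.1 and *Gdf15* at 66.0 ± 10.6, while *Oma1* was at 8.23 ± 0.401. In RSM M[0], *Atf5* (242 ± 8.11 CPM per kb) was above *Hspa9* (212 ± 9.53). *Yme1l1* (15.8 ± 0.766) and *Lonp1* (14.9 ± 1.48) were close in Veh M[0], and in HC3 M[0] they were at 14.9 ± 1.19 and 37.4 ± 0.695 CPM per kb. The per-kilobase ratio of *Lonp1* to *Clpp* was 1.27 to 1.34 over the libraries of Veh M[0], 2.11 to 2.52 in HC3 M[0] and 2.23 to 2.39 in RSM M[0]. In M[IL-4] that ratio was 1.17 to 1.44, 2.13 to 2.52 and 2.3 to 2.55, so the inhibitor and vehicle libraries did not overlap.

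IL-4 alone raised *Atf5* and, by less, the 3 chaperone genes. In vehicle-treated cells, M[IL-4] over M[0] gave a log2 fold change of 1.10 for *Atf5* (SE 0.0916, FDR 2.77e-08), 0.57 for *Hspd1* (FDR 9.38e-05), 0.47 for *Hspa9* (FDR 1.1e-05) and 0.40 for *Hspe1* (FDR 0.00667). The libraries of these 4 genes did not overlap between Veh M[0] and Veh M[IL-4]. Without replicate 3 the value of *Hspe1* was 0.26 (FDR 0.157). The other 5 tested members did not pass: *Gdf15* was at -0.04 (95% interval -0.45 to 0.38), *Lonp1* at 0.06 (-0.10 to 0.21), *Clpp* at 0.10 (-0.15 to 0.35), *Yme1l1* at 0.18 (0.00 to 0.35) and *Oma1* at 0.10 (-0.13 to 0.33). With the replicate block within each polarization state, *Yme1l1* also passed (0.17, FDR 0.00348). Thus 1 member was called higher (background 2.83% of all genes) and 4 passed the FDR as higher (16.1%).

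Under the inhibitors, the same comparison gave smaller values for the genes that IL-4 raised. With HC3, the log2 fold change of M[IL-4] over M[0] was 0.21 for *Atf5* (FDR 0.119), 0.17 for *Hspa9* (FDR 0.076), 0.19 for *Hspd1* (FDR 0.188) and 0.08 for *Hspe1* (FDR 0.701). With RSM it was 0.19 for *Atf5* (FDR 0.155), 0.05 for *Hspa9*, 0.07 for *Hspd1* and 0.18 for *Hspe1*, all with an FDR of at least 0.155. *Gdf15* fell by 0.58 with HC3 in M[IL-4] relative to M[0] (fold 0.671, FDR 0.0217), although its libraries overlapped (101 to 140.3 against 66.8 to 104 CPM), and without replicate 2 (-0.33, FDR 0.222) or replicate 3 (-0.48, FDR 0.329) it did not pass. With RSM the value of *Gdf15* was -0.29 (FDR 0.286). There *Gdf15* passed without replicate 1 (-0.56, FDR 0.00442) or with no count filter (-0.29, FDR 0.0106). No member was called in either comparison (background 3.97% of all genes with HC3 and 4.26% with RSM), and by the FDR alone 1 member passed with HC3 (14.7%) and 0 with RSM (15.5%). The replicate block within each polarization state raised these counts to 4 with HC3 (*Atf5*, *Hspa9*, *Hspd1* and *Gdf15*) and 2 with RSM (*Atf5* at 0.19, FDR 0.00429, and *Gdf15* at -0.32, FDR 0.00331). DESeq2 passed 2 members with HC3 (*Gdf15* and *Hspa9*) and 0 with RSM, where 1 member (*Atf5*) had an unadjusted p under 0.05 in edgeR.

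**Figure D3:**
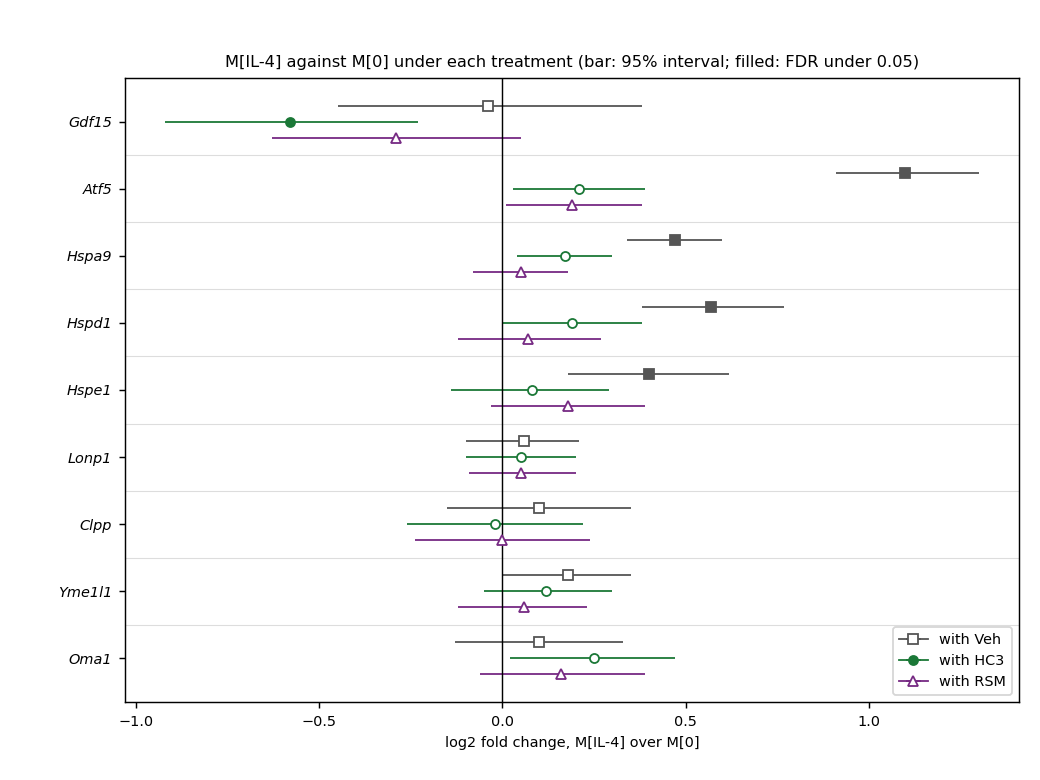
Log2 fold change of M[IL-4] over M[0] (x axis, log2 units) for the 9 members tested (y axis) with vehicle (grey squares), HC3 (green circles) and RSM (purple triangles), with 95% intervals as bars and filled markers for an FDR under 0.05. *Atf5* is at 1.10 with vehicle and at 0.21 and 0.19 with HC3 and RSM, while *Lonp1* is at 0.06, 0.05 and 0.05.

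The interaction of inhibitor and IL-4 tests whether the log2 fold change of inhibitor over vehicle differed between M[IL-4] and M[0]. It compares ratios, and whether the rise in CPM differed was not tested. For *Atf5* the inhibitor effect was smaller in M[IL-4] by 0.89 log2 units with HC3 (SE 0.126, FDR 0.000254) and by 0.91 with RSM (SE 0.125, FDR 0.000103), as its vehicle level differed more between polarization states than its inhibitor levels did. The interaction was -0.30 (FDR 0.0465) with HC3 and -0.41 (FDR 0.00451) with RSM for *Hspa9*. It was -0.38 (FDR 0.0886) and -0.50 (FDR 0.0185) for *Hspd1*, in the same order. The interaction of *Hspe1* did not pass with HC3 (-0.32, FDR 0.225) or RSM (-0.22, FDR 0.446). For *Lonp1* it was close to 0, at -0.01 with HC3 (95% interval -0.22 to 0.21) and 0.00 with RSM (-0.22 to 0.21). *Gdf15* was at -0.54 (-1.08 to 0.00, FDR 0.252) with HC3 and -0.25 (-0.79 to 0.29, FDR 0.659) with RSM. Hence 2 members passed the FDR as lower with HC3 (background 3.4% of all genes) and 3 with RSM (4.14%), and none was called in either direction (1.24% and 2.14%). Without replicate 3, 0 members passed with HC3, where *Atf5* was at -0.90 (FDR 0.0582) and *Hspa9* at -0.31 (FDR 0.392), and 1 (*Atf5*) passed with RSM, where *Hspa9* was at -0.45 and *Hspd1* at -0.55. Without replicate 2, 1 member (*Atf5*) passed with HC3. The sizes without replicate 3 were thus no smaller than those with all libraries, while the FDR was larger. With the replicate block within each polarization state, *Hspd1* (FDR 0.000644) and *Gdf15* (FDR 0.00787) passed too with HC3. *Hspd1* also passed with HC3 under 1 replicate block over both states (-0.38, FDR 0.0324). With HC3 and no count filter, *Gdf15* (-0.53, FDR 0.00327) and *Hspd1* (-0.38, FDR 0.0159) passed. Without replicate 1, *Gdf15* passed with HC3 (-0.84, FDR 0.0198).

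Compared directly, at doses and with targets that differ (250 µM HC3 for uptake, 5 µM RSM for the kinase), the inhibitors were separated by *Atf5*. Its HC3 level was below its RSM level by 0.49 log2 units in M[0] (fold 0.712, FDR 0.00064) and by 0.47 in M[IL-4] (fold 0.72, FDR 0.000897), with no overlap of libraries in either state. Without replicate 3, *Atf5* in M[IL-4] was at -0.51 with an FDR of 0.0524. *Gdf15* was higher with HC3 by 0.46 in M[0] (95% interval 0.12 to 0.80, FDR 0.0672), with libraries apart, and by 0.17 in M[IL-4] (-0.17 to 0.52, FDR 0.578). With the replicate block within each polarization state *Gdf15* passed in M[0] (0.45, FDR 5.98e-05), as it did in DESeq2 (0.45, FDR 0.0459). That block also passed *Yme1l1* in M[0] (-0.18, FDR 0.00549), and *Hspa9* (0.16, FDR 0.00279) and *Hspd1* (0.21, FDR 0.00325) in M[IL-4]. For *Hspa9*, *Hspd1*, *Hspe1*, *Lonp1* and *Clpp* the difference in M[0] lay between 0.04 and 0.15, and the widest of their 95% intervals reached 0.39. By the FDR alone 1 member passed in M[0] (background 13.6%) and 1 in M[IL-4] (13.0%), and none was called (3.04% and 2.8%).

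Other genes of mitochondrial proteostasis were read against the share of all genes that passed the FDR as higher, which was 22.6% with HC3 and 20.5% with RSM in naïve cells, and 18.9% and 20.1% after IL-4. As lower, 21.5% of all genes passed with HC3 and 20.7% with RSM in naïve cells, and 19.9% and 18.5% after IL-4. Of 11 other mitochondrial chaperones and cochaperones, 5 rose with HC3 in M[0] and 3 with RSM, the second of these near the share of all genes, and none fell. The median log2 fold changes were 0.25 and 0.217. In M[IL-4], 4 rose with HC3 and 4 with RSM, while 1 (*Trap1*, -0.19) fell with RSM. *Pam16* (0.57 with HC3 in M[0]) and *Clpb* (0.31) were the other genes to rise in M[0], and *Hscb* and *Pam16* rose in M[IL-4] with each inhibitor, as seen after the values were known. *Dnaja3*, a J-protein that stimulates mortalin, had the lowest FDR, and rose from a mean of 48.6 to 112 CPM with HC3 (log2 fold change 1.21, FDR 3.82e-12) and to 94.0 with RSM (0.95, FDR 1.06e-10) in M[0]. *Grpel2*, a nucleotide exchange factor of mortalin, rose by 0.48 and 0.42 in naïve cells and by 0.61 and 0.53 after IL-4. Its paralogue *Grpel1* rose by 0.37 and 0.24 in naïve cells, and after IL-4 its values were 0.05 and -0.03.

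Of 16 other mitochondrial proteases and processing peptidases, 8 rose with HC3 and 6 with RSM in naïve cells. After IL-4, 4 rose with HC3 (*Afg3l2*, *Parl*, *Mipep* and *Pitrm1*), the same genes and *Stoml2* rose with RSM, which makes 5, and 2 (*Phb* at -0.31 and *Htra2* at -0.28) fell with RSM. The count of 4 of 16 was near the share of all genes. None reached the size needed for a call, and the medians lay between 0.095 and 0.268. *Afg3l2*, a subunit of the inner membrane m-AAA protease, rose by 0.71 with HC3 and 0.41 with RSM in naïve cells, and by 0.65 and 0.38 after IL-4. *Pitrm1*, which degrades cleaved presequences, rose by 0.56 and 0.31 in M[0], and *Parl*, a rhomboid protease, by 0.48 and 0.35.

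Among genes of mitochondrial protein import, 12 of the 19 tested rose with HC3 and 9 with RSM in M[0] (medians 0.391 and 0.228), and 1 (*Timm22*, -0.29) fell with HC3. In M[IL-4], 3 rose with HC3 (*Tomm20*, *Timm8a1* and *Chchd4*) and 3 with RSM (*Tomm20*, *Timm8a1* and *Gfer*; medians 0.139 and -0.007), and 1 (*Tomm5*, -0.31) fell with RSM. These counts of 3 of 19 were no larger than the share of all genes. IL-4 alone raised 10 of the 19 (median 0.345), where 16.1% of all genes passed as higher. The difference between states was itself past the FDR for 3 genes with HC3 and 4 with RSM, all lower in M[IL-4]. These were *Tomm70a*, *Timm8a1* and *Timm23* with both inhibitors, and *Tomm40* with RSM. *Timm8a1*, an intermembrane space chaperone, rose from 3.05 to 7.13 CPM with HC3 (1.22, FDR 5.68e-06) and to 7.75 with RSM (1.34, FDR 1.78e-06) in M[0]. After IL-4 its rise was 0.43 and 0.39, with interactions of -0.79 (FDR 0.0381) and -0.95 (FDR 0.00878). The interaction of *Timm23*, the channel of the inner membrane translocase, was -0.42 (FDR 0.0147) and -0.34 (FDR 0.0349). *Chchd4*, the import oxidoreductase of the intermembrane space, rose by 0.89 and 0.50 in M[0].

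**Figure D4:**
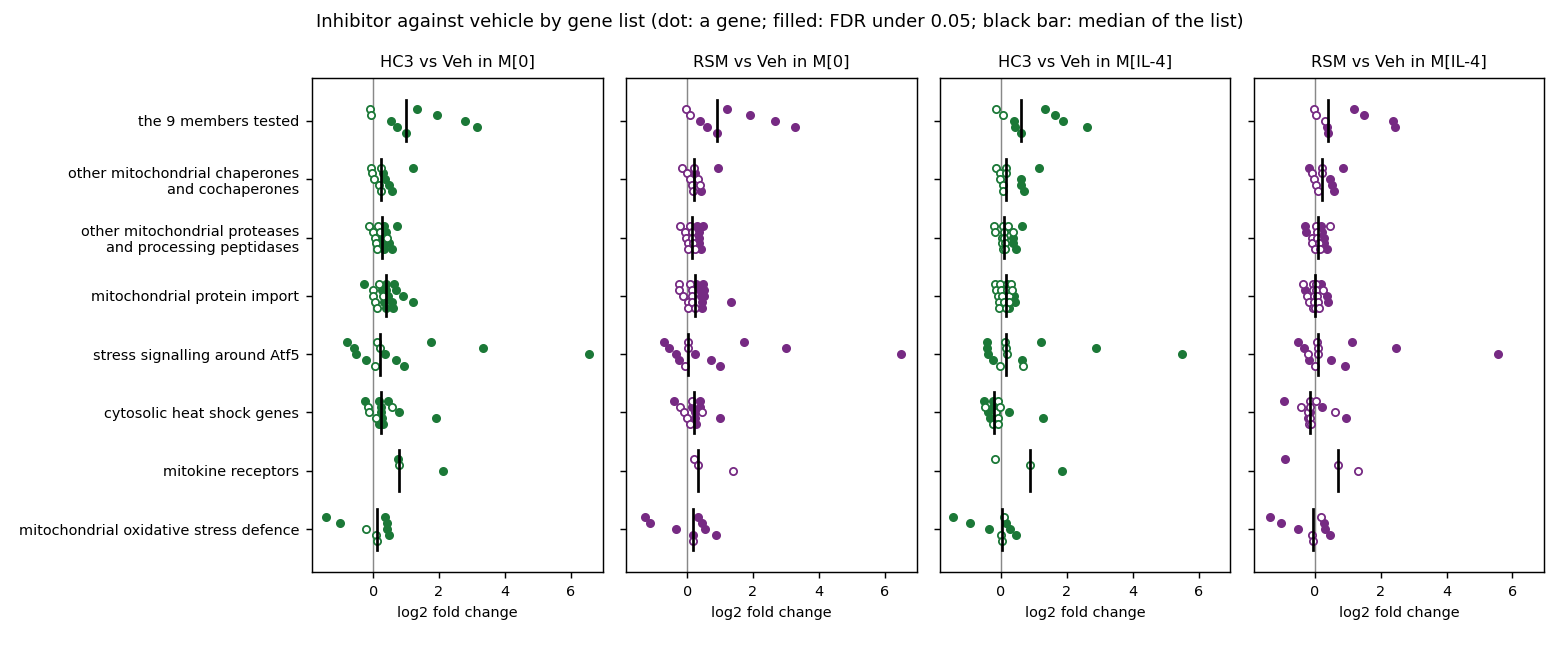
Log2 fold change of inhibitor over vehicle (x axis, log2 units) for each gene (dots, green for HC3 and purple for RSM, filled for an FDR under 0.05) of the 9 members tested and of 7 related gene lists (y axis), in the 4 inhibitor comparisons, with the median of each list as a black bar. In M[0] the members have a higher median (0.997 and 0.899) than other chaperones (0.25 and 0.217) and other proteases (0.268 and 0.161). In M[IL-4] the median of the mitokine receptors (3 tested) is above that of the members, at 0.87 against 0.612 with HC3. With RSM it is 0.701 against 0.398. Of these 3 receptors, 1 passed the FDR as higher with HC3 in M[IL-4]. With RSM there, 0 passed as higher and 1 as lower.

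Around *Atf5*, 13 genes of stress signalling were examined, of which 6 rose and 4 fell with each inhibitor in M[0]. After IL-4, 4 rose and 4 fell with HC3, and 5 rose and 3 fell with RSM, to be read against the shares of all genes given above. Those that rose in M[0] were the same 6 genes with both inhibitors, namely *Atf4*, *Ddit3*, *Trib3*, *Cebpb*, *Cebpg* and *Eif2s1*. *Trib3*, a pseudokinase gene induced by the integrated stress response, had a mean of 3.32 CPM with vehicle, 315 CPM after HC3 and 298 CPM after RSM in naïve cells. For *Ddit3*, which encodes the transcription factor CHOP, the means were 15.4, 155 and 122 CPM. The genes that fell included kinase genes of the integrated stress response, as seen after the values were known. *Eif2ak2*, the double-stranded RNA sensor kinase PKR, was at -0.79 with HC3 and -0.54 with RSM in naïve cells, and *Eif2ak3*, the endoplasmic reticulum kinase PERK, at -0.51 and -0.33. *Eif2ak1*, the kinase HRI that relays mitochondrial damage sensed through OMA1 and DELE1, fell by 0.22 with HC3 in naïve cells, and after IL-4 it fell by 0.26 with HC3 and 0.17 with RSM, and was at -0.07 (FDR 0.364) with RSM in M[0]. *Dele1* did not pass in any inhibitor comparison, with values from 0.02 to 0.16. *Ubl5* fell by 0.59 and 0.70 in M[0], and *Eif2ak4* by 0.25 with RSM. The interactions with IL-4 of *Trib3* (-1.07 and -0.92), *Atf4* (-0.56 and -0.62) and *Ddit3* (-0.45 and -0.52), for HC3 and RSM in turn, all passed the FDR and had the sign found for *Atf5*.

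Cytosolic heat shock genes, known as targets of HSF1, were described beside the mitochondrial chaperones. In M[0], 9 of 14 rose with HC3 and 7 with RSM, and 1 fell with each (*Hspa8* with HC3 and *Bag3* with RSM), with medians of 0.233 and 0.198. In M[IL-4], 2 (*Hspb1* and *Cct2*) rose with each inhibitor, 5 fell with HC3 (*Bag3*, *Hspa8*, *Dnajb1*, *Hsph1* and *Dnaja1*) and 3 with RSM (*Bag3*, *Hsp90ab1* and *Hspa4*), and the medians were -0.206 and -0.155. The counts of 2 of 14 that rose were below the share of all genes that did, and 3 of 14 that fell was near the share of all genes that fell. IL-4 alone raised 10 of the 14 (median 0.373), where 16.1% of all genes passed as higher. *Bag3*, a cochaperone of Hsp70, was at -0.12 (FDR 0.119) with HC3 and fell by 0.41 with RSM in naïve cells, and after IL-4 it fell by 0.53 and 0.93. *Cct2*, of the cytosolic chaperonin, rose by 0.46 and 0.40 in naïve cells and by 0.24 and 0.21 after IL-4. *Hspb1* rose by 1.91 (FDR 3.84e-05) with HC3 and 1.00 (FDR 0.0129) with RSM in M[0].

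Of 7 receptor genes of the mitokines, 3 (*Ret*, *Fgfr1* and *Fgfr2*) passed the filter. *Gfral*, the receptor of GDF15, had 0 counts in all 18 libraries, and *Klb*, the coreceptor of FGF21, had 15 counts in all. *Fgfr1*, a receptor of many fibroblast growth factors, had group means of 22.2 to 54.3 CPM. *Ret*, the kinase that signals with GFRAL, rose with HC3 from 1.03 to 4.57 CPM in M[0] (2.13, FDR 0.006) and from 1.05 to 3.82 CPM in M[IL-4] (1.85, FDR 0.0176). *Fgfr1* rose by 0.76 in naïve cells given HC3 (FDR 0.000449). After RSM and IL-4 it fell by 0.92 relative to IL-4 alone (FDR 0.000103). The summed stromal level was above vehicle in every inhibitor library in M[0] and overlapped with vehicle in M[IL-4]. Of the 6 stromal markers tested, 3 and 2 passed the FDR as higher with HC3 in the 2 states, and with RSM 2 passed as higher and 1 as lower in each. Of all genes, 22.6% and 18.9% passed as higher with HC3 in M[0] and M[IL-4]. With RSM, 20.5% and 20.1% passed as higher, and 20.7% and 18.5% as lower. The part of stromal cells in the receptor values was not tested.

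Of 9 tested genes of mitochondrial oxidative stress defence, 4 rose and 2 fell with HC3 in M[0]. With RSM in M[0], 5 rose and 3 fell. Of all genes, 22.6% rose and 21.5% fell with HC3 there, and 20.5% rose and 20.7% fell with RSM. The 2 of 9 that fell with HC3 were near the share of all genes. *Prdx3*, *Prdx5*, *Txn2* and *Gpx4* rose with both inhibitors and *Sod2* with RSM, while *Txnrd2* fell by 0.35 with RSM. *Ucp2*, an uncoupling protein of the inner membrane, was at -1.44 with HC3 and -1.29 with RSM in naïve cells, and *Gpx1*, a glutathione peroxidase, at -1.01 and -1.12. *Prdx5*, a peroxiredoxin, rose by 0.48 and 0.89 in M[0], with interactions of -0.39 (FDR 0.0395) and -0.62 (FDR 0.00113). After IL-4, 3 of the 9 genes rose and 3 fell with each inhibitor, with medians of 0.04 for HC3 and -0.068 for RSM.

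For each member the 3 genes with the most similar profile over the 6 group means were found among the 14979 genes tested, by the root mean square difference of centred log2 CPM. These genes share all 18 libraries with the members, so this is a description. The nearest gene to *Hspa9* was *Aars*, an aminoacyl-tRNA synthetase gene, at a difference of 0.0554 for a profile of size 0.839, and that to *Hspd1* was *Lars* (0.0258 for a size of 0.39). *Lonp1* lay nearest to *Ghitm* (0.0374 for a size of 0.597), a gene of the mitochondrial inner membrane, with *Snhg12* and the amino acid transporter subunit gene *Slc3a2* next. *Atf5* was nearest to *Glrp1* (0.216 for a size of 1.27), the amino acid transporter gene *Slc7a5* and *Nupr1*, and *Gdf15* to *AC157784.1* (0.16 for a size of 1.29), the amino acid transporter gene *Slc1a4* and *Tmem151a*. After *Aars*, *Hspa9* was closest to *Ifrd1* and *Slc13a5*, and *Hspd1* after *Lars* to *Rrp12* and *Gnl3*. *Hspe1* was nearest to *Nip7*, *Rps3* and *Dnajc2* (0.0359 to 0.038 for a size of 0.279), and *Clpp* to *Aasdhppt*, *Btbd10* and *Dnttip2* (0.0217 to 0.0277 for a size of 0.203). The profiles of *Yme1l1* and *Oma1* had a size of 0.0878 and 0.0917, so their nearest genes (*U2surp*, *Mib1* and *Ptp4a2*, and *Agtpbp1*, *Ociad1* and *Hivep1*) are genes that varied as little.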

How the data were processed

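Poly-T-selected mRNA of 18 BMDM libraries was sequenced, and the authors deposited 1 table of raw read counts per Ensembl gene. Per the study's methods, reads were trimmed with fastp, aligned to GRCm38 with STAR in local mode, filtered as read pairs on mapping quality, with duplicates marked but not removed, and counted over exons with featureCounts. Tool versions, annotation release and the strand setting of the counting are not given in the sources used here.

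Counts were tested as deposited with edgeR 4.0.16 in R 4.3.3 (quasi-likelihood, TMM scaling, 1 coefficient per group over all 18 libraries), after removal of genes that did not reach 10 counts in 2 or more libraries, which kept 14979 of 55385 genes. P-values were two-sided and adjusted over all genes tested by Benjamini-Hochberg in each of 11 comparisons. Calls needed an FDR under 0.05 together with a log2 fold change of 1 or more in size. CPM used TMM-scaled library sizes. Exon length was that of all annotated exons of a gene merged, not of the transcripts expressed. Levels per kilobase of different genes, and the sizes of their ratios, therefore depend on the annotation. At this depth 3 counts correspond to 0.153 to 0.176 CPM in a library, and that floor covers counting error only. Gene symbols, coordinates and exon lengths were from GENCODE vM21 (GRCm38), near-identical transcripts were found with blastn 2.17.0 (98% identity over at least 100 bases), and promoter windows were from RefSeq (GRCm38.p6). Coordinates and promoter sequence of *Hspa9* were not used here.

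The same replicate number was checked for pairing: within a polarization state, deviations from the group means of same-numbered libraries correlated above 0.1 in 18 of 18 pairs (r 0.11 to 0.372), and between states in 12 of 27. The numbers come from the sample labels. A replicate block, overall and within each polarization state, was therefore fitted as an alternative, beside DESeq2 1.42.0, other filters and scalings, the compared groups alone, leaving out mitochondrial genes, and leaving out each replicate number in all groups. Replicate libraries differed by more than sampling noise. On data simulated for HC3 against vehicle in M[0], edgeR recovered 199 of 200 changed genes among 14354, with 7 false calls. The changed genes had higher counts and changes above the size needed for a call, and libraries were drawn independently. The simulation therefore does not cover smaller changes, interactions or the correlation of same-numbered libraries.

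The text names the 10 members, up to 3 genes per related list with the lowest FDR in an inhibitor comparison, and the 3 nearest profiles per member. Any other gene named was chosen after its values were seen. Members and lists were chosen with earlier results of these data known.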

Additional observations from a re-analysis of the deposited data

Results flagged for a closer look

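For 5 results the log2 fold change of inhibitor over vehicle differed between M[IL-4] and M[0] by the interaction test of edgeR's quasi-likelihood fit. The log2 fold change of *Atf5* was lower in M[IL-4] than in M[0], with an interaction of -0.89 with HC3 (FDR 0.000254) and -0.91 with RSM (FDR 0.000103). The interaction was -0.30 with HC3 (FDR 0.0465) and -0.41 with RSM (FDR 0.00451) for *Hspa9*, and -0.50 with RSM (FDR 0.0185) for *Hspd1*. In each case the vehicle level was higher in M[IL-4] than in M[0]. The test compares ratios over vehicle, and whether the rise in CPM differed was not tested. The value of *Hspa9* with HC3 kept its size but did not pass when replicate 1 (-0.27, FDR 0.126), 2 (-0.28, FDR 0.177) or 3 (-0.31, FDR 0.392) was left out, nor with only the compared groups (FDR 0.0814), no count filter (FDR 0.0961) or mitochondrial genes left out (FDR 0.0542). The value of *Hspa9* with RSM did not pass without replicate 3 (-0.45, FDR 0.126), and that of *Hspd1* without replicate 2 (-0.41, FDR 0.135) or 3 (-0.55, FDR 0.112). *Atf5* passed with RSM whichever replicate was left out, and with HC3 it did not pass without replicate 3 (-0.90, FDR 0.0582).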

How the results depend on the processing

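Across 11 alternatives no call changed direction, and the 4 members called higher in each inhibitor comparison were called under each of them, joined by *Hspd1* with HC3 in M[0] under library-size scaling and without replicate 3. The counts that moved over 1.5 times were of members past the FDR in the smaller comparisons. For M[IL-4] against M[0] with HC3 (1 member), the replicate block, DESeq2, no count filter and mitochondrial genes left out each gave 2, the replicate block within each polarization state gave 4, and leaving out a replicate gave 0 to 3. With RSM (0 members), that within-state block gave 2, no count filter gave 1, and leaving out a replicate gave 0 to 1. For the HC3 interaction (2 members), the within-state block gave 4, the compared groups alone and mitochondrial genes left out each gave 1, and leaving out a replicate gave 0 to 2. For the RSM interaction (3 members), leaving out a replicate gave 1 to 3. For HC3 against RSM in M[0] (1 member), the replicate block, the compared groups alone, DESeq2 and no count filter each gave 2, the within-state block gave 3, and leaving out a replicate gave 1 to 2. In M[IL-4] (1 member), the within-state block gave 3, DESeq2 and no count filter each gave 2, and leaving out a replicate gave 0 to 1. Library-size scaling passed *Clpp* with RSM in M[IL-4] (0.34, FDR 0.0314), as did the replicate block (0.30, FDR 0.04), and leaving out replicate 1 passed *Yme1l1* with IL-4 alone (0.27, FDR 0.0288). The replicate block changed no other call than those given here and in the results. For single members, 1006 values kept direction and side of the FDR, 37 newly passed, 20 no longer passed, and 26 near 0 changed sign without passing. The causes were not tested. *Fgf21* was too low to test.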
